A study of Mus musculus with 6 samples.

Results

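Fibroblast growth factors (FGFs) and their receptors were compared between 2 lines of MOSE cells, mouse cells of the ovarian surface epithelium, the layer that covers the ovary. The gene set was fixed by name and held 5 ligand genes (Fgf1, Fgf2, Fgf5, Fgf7 and Fgf18) and 5 receptor genes (Fgfr1, Fgfr2, Fgfr3, Fgfr4 and Fgfrl1), 10 of the 25006 genes with counts. MOSE-PAX8 overexpresses the paired-box transcription factor PAX8, MOSE-NEO is the reference line, and RNA of each was sequenced in 3 libraries. Both lines were kept under G418 at 0.05 mg/mL. The promoter of the introduced PAX8 was not given in the sources used here, nor whether either line is a single clone. The labels name 1 line per group, so the PAX8 construct and other differences between the lines cannot be told apart.

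FGFs are signalling proteins. Most are secreted and bind heparan sulphate, a sulphated sugar chain of the cell surface, together with a receptor tyrosine kinase encoded by Fgfr1 to Fgfr4. Binding pairs the receptors, which then signal through the adaptor FRS2 to the RAS-ERK and PI3K pathways, while Fgfrl1 encodes a receptor that lacks the kinase domain. The ligands differ in their receptors: Fgf7 and Fgf10 act from stroma on epithelium, and Fgf2, Fgf9 and Fgf18 act mainly on the receptor forms of mesenchyme.

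Those forms come from one splicing choice. In Fgfr1, Fgfr2 and Fgfr3 the second part of the third immunoglobulin-like domain, which contacts the ligand, is encoded by one of a pair of neighbouring exons, called IIIb (bound by Fgf7 and Fgf10 in the case of Fgfr2) and IIIc. The pair of Fgfr3 is shown because this gene rose most among the receptors in MOSE-PAX8 while the counts, made per gene, add the forms up. Both exons were read from GENCODE M21 transcripts (mm10), and capitals mark the bases that differ between them, gaps of the alignment included.
Fgfr3 IIIb, chr5:33731281-33731431, plus strand: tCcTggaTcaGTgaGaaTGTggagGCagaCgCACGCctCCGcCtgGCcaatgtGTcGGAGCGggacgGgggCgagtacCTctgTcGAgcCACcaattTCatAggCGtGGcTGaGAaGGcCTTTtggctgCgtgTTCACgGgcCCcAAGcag
Fgfr3 IIIc, chr5:33732117-33732261, plus strand: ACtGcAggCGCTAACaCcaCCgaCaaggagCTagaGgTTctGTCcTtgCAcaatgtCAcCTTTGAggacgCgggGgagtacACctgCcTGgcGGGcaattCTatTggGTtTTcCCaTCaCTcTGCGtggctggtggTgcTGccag
Identity over the aligned columns was 50.6% between these forms. No value below separates IIIb from IIIc transcripts.

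The libraries held 23623762 to 36367825 counts and correlated at 0.989 or more within a line and 0.946 or less between lines (across genes, which are not independent replicates, on the log2 counts-per-million scale, CPM). Pax8 itself had 0, 1 and 1 counts in MOSE-NEO and 2570, 2973 and 3544 in MOSE-PAX8. Of 10 markers of the ovarian surface or mesothelium all were tested; 7 fell, none rose, and their summed level was 14766 to 16377 CPM in MOSE-NEO and 8355 to 9825 in MOSE-PAX8. Of 8 fibroblast markers, 2 of 4 tested fell (summed level 14517 to 17303 and 7210 to 8501), and Pdgfra, Pdgfrb, Lum and Postn were at 31 counts or fewer in each line. Of 7 leukocyte markers 1 of 2 tested rose, Ptprc, from 1 count to 196 counts in total, while Adgre1 was at 0 in every library. The summed leukocyte level was 1.96 to 3.43 and 4.81 to 6.5 CPM. Of 8 granulosa and theca markers Foxl2 rose from 1 count to 182, Inha and Star fell, and Fshr, Cyp19a1 and Lhcgr were at 0. Their summed level was 442 to 541 and 374 to 414 CPM. None of 6 endothelial markers had enough counts for the test, Cdh5 and Cldn5 were at 0, and the summed level was 0.348 to 0.996 and 0.189 to 0.493 CPM. Over all 12313 tested genes 17.9% were called higher and 16.1% lower. The part of these markers in the FGF results was not tested. Fewer cells of a type and less RNA per cell cannot be told apart in such libraries. Genes of long intergenic RNA (lincRNA) took 0.317% of the counts of MOSE-NEO library 1 and 0.33% of those of MOSE-PAX8 library 2, and 0.146% to 0.195% elsewhere.

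The receptors that changed were higher in MOSE-PAX8 and the ligands that changed were lower. Of 4 receptor genes with enough counts for the test, Fgfr1, Fgfr2 and Fgfr3 were higher in MOSE-PAX8, by 4.47-fold, 3.62-fold and 57.2-fold, and none was lower. Of 4 ligand genes tested, Fgf2 and Fgf18 were lower, by 1.82-fold and 1.36-fold, and none was higher. The call was an adjusted p below 0.05 in edgeR's quasi-likelihood test with Benjamini-Hochberg adjustment over 12313 genes. Over all those genes 33.9% were called, 17.9% higher and 16.1% lower, with a median log2 fold change of 0.01. The median was 2.01 over the 4 tested receptors and -0.65 over the 4 tested ligands. Fgf1 and Fgfr4 had too few counts for the test.

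**Figure D1:**
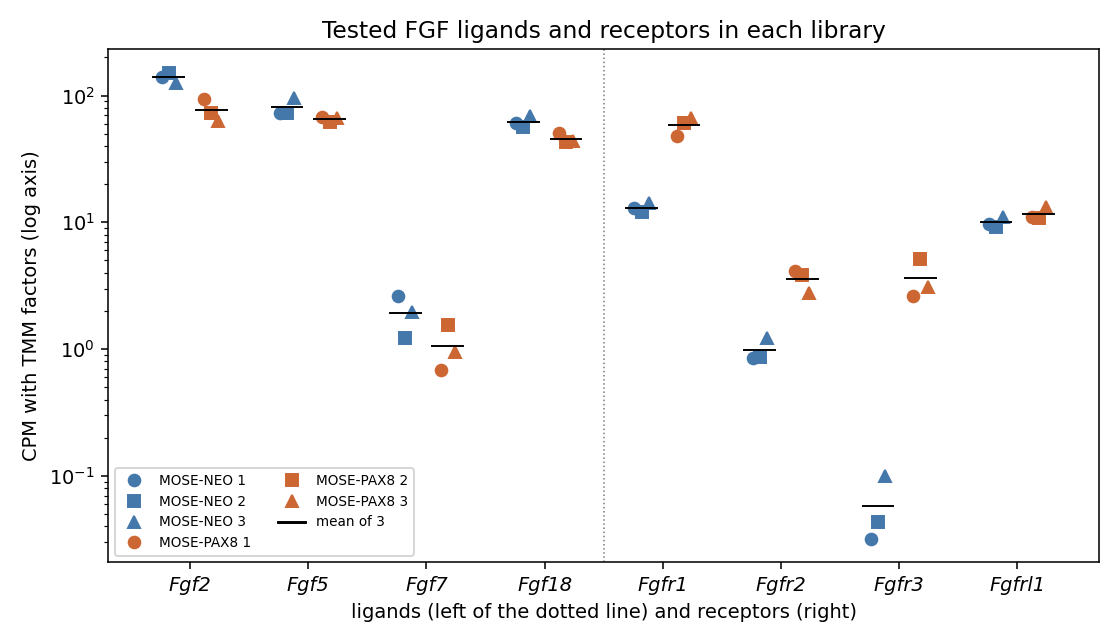
CPM with TMM factors (log axis) of the 4 ligand and 4 receptor genes that were tested, with 1 symbol per library and a line at the mean of the 3 libraries of each line. The MOSE-PAX8 libraries of Fgfr1, Fgfr2 and Fgfr3 sit above all MOSE-NEO libraries, and those of Fgf2, Fgf5 and Fgf18 below them.

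Values per library are given in CPM scaled with TMM factors, in the order of the replicate number. Fgfr1, the FGF receptor typical of mesenchymal cells, had 12.9, 12 and 14.3 CPM in MOSE-NEO and 47.7, 61.1 and 66.8 CPM in MOSE-PAX8. All MOSE-PAX8 libraries were far above the highest MOSE-NEO library. The log2 fold change was 2.16 ± 0.14 (SE, edgeR adjusted p = 1.37e-05). Fgfr1 (ENSMUSG00000031565) lies on the plus strand of chromosome 8, from 25513654 to 25575718, and shares 164 exon bases with the antisense gene Gm16159, which had 0 and 3 counts in the lines.

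Fgfr2, whose IIIb form is the receptor of epithelia for Fgf7 and Fgf10, was much less abundant. It had 27, 20 and 37 counts in MOSE-NEO and 152, 122 and 90 in MOSE-PAX8, which is 0.858, 0.869 and 1.23 CPM against 4.16, 3.83 and 2.77 CPM. Every MOSE-PAX8 library was above every MOSE-NEO library, and the log2 fold change was 1.86 ± 0.26 (SE, edgeR adjusted p = 0.000807). The gene (ENSMUSG00000030849, chromosome 7, 130162451 to 133123350, minus strand) has an unusually long annotated model that spans 69 other genes and shares 314 exon bases with Ctbp2 on the same strand, and Ctbp2 rose 1.4-fold (edgeR adjusted p = 0.00297). The 170 tested genes within 10 Mb of Fgfr2 lay at a median of 0.27 on the log2 scale, and with that median removed Fgfr2 was still called, at 1.59 (edgeR adjusted p = 0.00207, range over the alternatives 1.48e-07 to 0.0119).

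Fgfr3, a receptor best known as a brake on cartilage growth and as an oncogene of bladder epithelium, went from nearly no reads to a low level. The MOSE-NEO libraries held 1, 1 and 3 counts and the MOSE-PAX8 libraries 96, 163 and 100. In CPM this is 0.0318, 0.0435 and 0.0996 against 2.62, 5.12 and 3.08, so that MOSE-PAX8 library 2, one of the lincRNA-rich libraries, stood highest. The log2 fold change was 5.84 ± 0.48 (SE, edgeR adjusted p = 5.81e-05), and 5.16 when the lincRNA-rich pair of libraries was dropped (edgeR adjusted p = 0.000915, range over the alternatives 2.93e-14 to 0.000915). With only 5 counts in the reference line the size is loosely bounded: the ratio of counts per total was 62.8, and its exact 95% counting interval ran from 26.7 to 195. The gene (ENSMUSG00000054252, chromosome 5, 33721674 to 33737068, plus strand) shares 998 exon bases with the antisense gene G630022F23Rik, not analysed here. As no source used here gives the strand setting of the counting, reads of that gene cannot be told apart from reads of Fgfr3 over those bases. Even in MOSE-PAX8, Fgfr3 stayed far below Fgfr1, at 3.61 ± 1.33 against 58.5 ± 9.81 CPM (SD, n = 3).

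The start of Fgfr3 is shown because it was the receptor gene with the largest fold change. The window (RefSeq, build GRCm38.p6, plus strand) runs up to the first base of the earliest annotated exon, and capitals mark the motifs searched for and found.
Fgfr3 upstream, chr5:33721474-33721674: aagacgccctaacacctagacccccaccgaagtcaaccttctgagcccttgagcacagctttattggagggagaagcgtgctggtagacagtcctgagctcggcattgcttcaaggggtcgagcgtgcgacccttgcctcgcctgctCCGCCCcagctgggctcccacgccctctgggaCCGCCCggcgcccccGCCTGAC
It holds 2 GC boxes (GGGCGG on either strand) and, at its end, 1 match to GTCANGC, a short core of the site bound by PAX2, PAX5 and PAX8, on the minus strand. None of these matches overlap, and TATAAA was not found. Among all 32851 promoter windows of 300 bases in the RefSeq table, 35.7% hold GGGCGG, 10.7% hold GTCANGC and 13.6% hold TATAAA on either strand. Of the 9 windows of 8 member genes, GTCANGC was found in 3, those of Fgfr3 (the upstream one of its pair), Fgf2 and Fgf5. The stretch shown has 201 bases, fewer than these windows, and was extended by 1 base to take in the GTCANGC match. The 2 Fgfr3 windows were at 69.7% and 73% GC, beside a median of 52.7% over all windows. The matches describe letters only.

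Of the remaining receptors Fgfr4 could not be tested and Fgfrl1 was not called. Fgfr4, the receptor of liver for endocrine FGFs, had 1, 0 and 0 counts in MOSE-NEO and 1, 1 and 1 in MOSE-PAX8, a ratio of 2.63 with a counting interval of 0.211 to 138. Fgfrl1, the kinase-lacking receptor, had 9.75, 9.26 and 11 CPM in MOSE-NEO and 11, 10.9 and 13.1 CPM in MOSE-PAX8. The lines overlapped, and the log2 fold change of 0.22 had a 95% interval of -0.06 to 0.50 (edgeR adjusted p = 0.203).

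The ligands fell or did not pass. Fgf2, basic FGF, a broad-acting ligand without a signal peptide, had 140, 151 and 126 CPM in MOSE-NEO and 93.8, 72.6 and 63 CPM in MOSE-PAX8. The groups did not overlap, and the log2 fold change was -0.86 ± 0.14 (SE, edgeR adjusted p = 0.00204). Fgf2 (ENSMUSG00000037225, chromosome 3, 37348346 to 37410108, plus strand) shares exon bases with Gm43439, not analysed here, and with its antisense neighbour Nudt6. The strand setting of the authors' counting was not given in the sources used here. Nudt6 had 54 and 47 counts in total in the lines, against 11680 and 7788 of Fgf2.

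Fgf18 (chromosome 11, 33117430 to 33147400, minus strand), a ligand of the IIIc forms and of Fgfr3 in cartilage, had 60.9, 56.1 and 68.9 CPM in MOSE-NEO and 50.3, 42.6 and 44.1 CPM in MOSE-PAX8. The step between the nearest libraries was small, and the log2 fold change was -0.44 ± 0.10 (SE, edgeR adjusted p = 0.00983). Without the lincRNA-rich pair of libraries it was -0.42 and no longer called (edgeR adjusted p = 0.0551, range over the alternatives 0.00151 to 0.0551).

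Fgf5, the ligand that ends the growth phase of hair, had 73.2, 72.8 and 95.3 CPM in MOSE-NEO and 67.1, 61.3 and 66.9 CPM in MOSE-PAX8. All MOSE-PAX8 libraries were below the MOSE-NEO libraries, but the log2 fold change of -0.31 (95% interval -0.56 to -0.05) missed the threshold after adjustment (edgeR adjusted p = 0.0674). Across all tested genes the libraries of the lines did not overlap in 47.6%, with MOSE-PAX8 above in 25.3% and below in 22.2%. Among the members this held for 3 receptors, with MOSE-PAX8 above, and 3 ligands, with MOSE-PAX8 below.

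Fgf7, keratinocyte growth factor, was the scarcest tested ligand. It had 82, 28 and 59 counts in MOSE-NEO and 25, 49 and 31 in MOSE-PAX8, so that the groups overlapped, and a log2 fold change of -0.88 with a 95% interval of -1.74 to -0.02 (edgeR adjusted p = 0.107). MOSE-PAX8 library 2 held the highest value of its line, and without it the log2 fold change was -1.25 and passed (edgeR adjusted p = 0.0365, range over the alternatives 0.0365 to 0.31). Fgf1, acidic FGF, which binds every FGF receptor, had 0, 1 and 1 counts in MOSE-NEO and 2, 4 and 2 in MOSE-PAX8. The ratio of 3.5 had a counting interval of 0.699 to 33.8, so no difference was detectable at this depth.

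**Figure D2:**
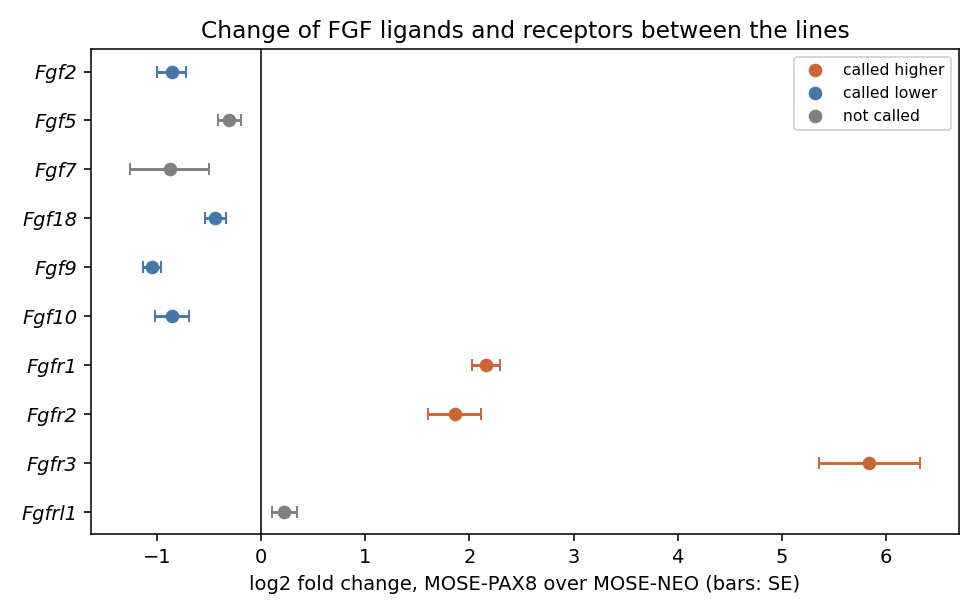
Log2 fold change of MOSE-PAX8 over MOSE-NEO with its SE for the 8 tested members and for Fgf9 and Fgf10, coloured by the edgeR call. The ligands lie between -1.05 and -0.31, while Fgfr1, Fgfr2 and Fgfr3 lie between 1.86 and 5.84 and Fgfrl1 at 0.22.

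Further ligands of the family were measured alongside. Of 17 other Fgf genes only Fgf9 and Fgf10 had enough counts for the test, and both fell. Fgf9, a ligand of IIIc forms that acts in gonad development, went from 68.1, 57.6 and 65.9 CPM to 31.3, 31.7 and 29.8 CPM (2.07-fold lower, edgeR adjusted p = 5.44e-05). It lies on chromosome 14, where the 149 tested genes within 10 Mb lay at a median of -0.42, and with that median removed it was at -0.63 and still called. Fgf10, a ligand of Fgfr2 IIIb, went from 112, 137 and 106 CPM to 71.8, 74.4 and 49.4 CPM (1.81-fold lower, edgeR adjusted p = 0.00382). Fgf21, an endocrine FGF of liver, was under the filter with 8 and 37 counts in total, a ratio of 4.05 with a counting interval of 1.86 to 10.1. It was the one further Fgf gene with at least 10 counts, and 8 Fgf genes (Fgf3, Fgf4, Fgf6, Fgf12, Fgf14, Fgf15, Fgf16 and Fgf20) were at 0 in every library, where 3 counts, 0.0825 to 0.127 CPM, is the upper limit that a count of 0 allows. Among the other Fgf genes 1 was called higher with no filter, without MOSE-NEO replicate 1, without MOSE-PAX8 replicate 2, or without both.

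Levels of different genes were compared per length, as RPKM (CPM per kilobase of merged annotated exons). In MOSE-NEO the order was Fgf18 at 52.2 ± 5.46, Fgf5 at 32.2 ± 5.13, Fgf10 at 25.7 ± 3.55, Fgf2 at 20.5 ± 1.85, Fgf9 at 13.7 ± 1.19, Fgfrl1 at 3.6 ± 0.327, Fgfr1 at 1.32 ± 0.116, Fgf7 at 0.593 ± 0.214 and Fgfr2 at 0.0954 ± 0.0204 RPKM (SD, n = 3). Fgf5 and Fgf10 overlapped there. Fgfr3, Fgf1 and Fgfr4 came last, at 0.00814, 0.00468 and 0.00299 RPKM, from 5, 2 and 1 counts. In MOSE-PAX8 the 5 abundant ligands kept that order, from 38.4 ± 3.42 RPKM for Fgf18 to 6.65 ± 0.219 for Fgf9, and Fgf10 and Fgf2 overlapped. The receptors changed places: Fgfr1 stood at 5.93 ± 0.993 RPKM, above Fgfrl1 at 4.2 ± 0.447 in every library and overlapping Fgf9. Fgfr3 (0.504 ± 0.186), Fgfr2 (0.347 ± 0.07) and Fgf7 (0.326 ± 0.135) followed, each overlapping its neighbour. The merged exons are much longer than the longest transcript for Fgfr2 (10328 and 4429 bases), Fgfr1 (9875 and 5041) and Fgfr3 (7158 and 4245), and close to it for Fgf18 (1187 and 1086) and Fgf5 (2501 in both), which lowers the RPKM of these receptors beside those ligands.

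The summed level of Fgfr1 to Fgfr4, the receptors with a kinase, was 1.4, 1.31 and 1.58 RPKM in the MOSE-NEO libraries and 5.61, 7.29 and 7.47 RPKM in the MOSE-PAX8 libraries, 4.74 times the reference mean. The 5 ligand genes summed to 102, 99 and 115 RPKM in MOSE-NEO and 83.2, 71.6 and 73.4 RPKM in MOSE-PAX8, 0.721 times the reference mean. The ratio of ligand to kinase-receptor transcripts was therefore 73.8 ± 1.6 in MOSE-NEO and 11.5 ± 2.89 in MOSE-PAX8 (SD, n = 3), and 102 ± 5.74 and 14.6 ± 3.64 with Fgf9 and Fgf10 added. The size of the ratio rested on the length: by longest transcript it was 40.0 ± 0.919 and 6.27 ± 1.56 (SD, n = 3), while the MOSE-NEO ratio was 6.42 times that of MOSE-PAX8 by merged exons and 6.38 times by longest transcript. These sums describe transcripts, not protein, and were not tested.

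The make-up of the receptor transcripts differed as well. Fgfrl1 took 71.4%, 71.8% and 71.5% of the summed receptor RPKM in MOSE-NEO and 41.5%, 35% and 38.7% in MOSE-PAX8. Fgfr1 took 26.6%, 26.3% and 26.1% in MOSE-NEO and 50.4%, 55.3% and 55.5% in MOSE-PAX8, and Fgfr3 went from at most 0.251% to 3.83%, 6.38% and 3.53%. Fgfr1 thus passed Fgfrl1 as the leading receptor transcript. In MOSE-NEO Fgfrl1 led with each of 3 lengths (merged exons, coding length and longest transcript), and only with no length scaling did Fgfr1 lead there too, with 54.2% against 41.5%.

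**Figure D3:**
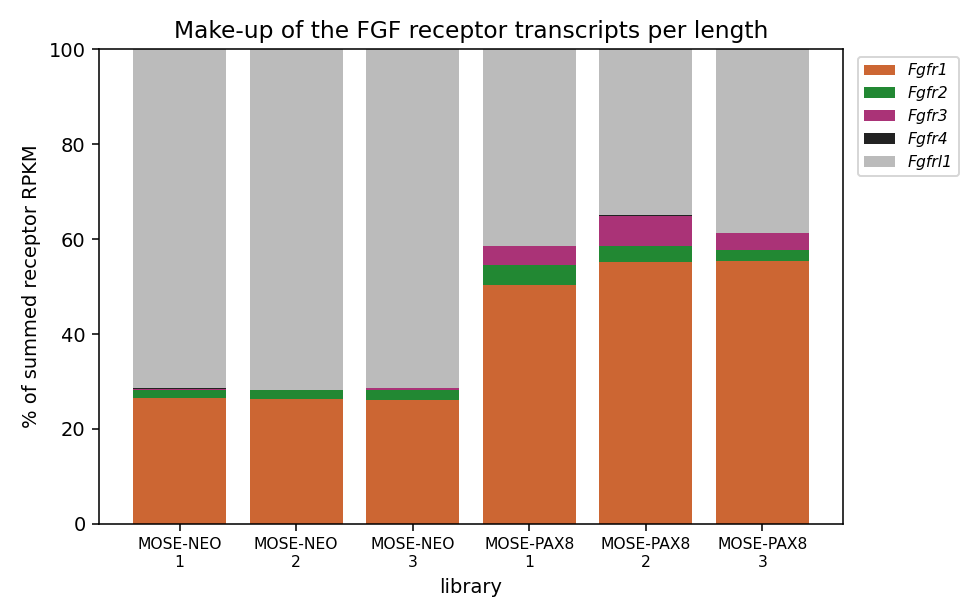
Share of each receptor gene in the summed receptor RPKM (percent, bars from 0 to 100) in each of the 6 libraries. Fgfrl1 holds 71.4% to 71.8% in the MOSE-NEO libraries and 35% to 41.5% in the MOSE-PAX8 libraries, where Fgfr1 holds 50.4% to 55.5%.

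Genes that work with these ligands and receptors were taken as 8 lists of 115 genes, of which 82 had enough counts. Of these 22 were higher and 19 lower in MOSE-PAX8, 26.8% and 23.2%, beside 17.9% and 16.1% of all tested genes, with a median log2 fold change of 0.02. The count of each list below is to be read beside the same 17.9% and 16.1%, and no list was tested as a set.

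Partners of the receptors at the membrane included a cadherin and other adhesion molecules. Of 8 genes 6 were tested, 3 rose and 1 fell, with a median of 0.82 on the log2 scale. Cdh2 encodes N-cadherin, which holds FGFR1 at the cell surface, and rose 2.55-fold from 114 ± 2.83 to 289 ± 26.3 CPM. Ncam1, a neural adhesion molecule that binds FGFR1, rose 3.71-fold from 22 ± 3.71 to 81.5 ± 19.3 CPM (SD, n = 3). Flrt1, a leucine-rich repeat protein that binds FGF receptors, was 2.01-fold lower. The adjusted p of these 3 ran from 1.46e-05 to 0.00304 (edgeR). The remaining gene that rose was Flrt3, of the same family as Flrt1. It was 3.21-fold higher (edgeR adjusted p = 0.000303), while Flrt2 was not called, with a log2 fold change of -0.01. Flrt2 and Flrt3 were named after their values were seen. The endocrine co-receptor genes Kl and Klb had too few counts for the test.

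Genes of heparan sulphate, without which FGFs bind their receptors weakly, moved in both directions. Of 19 genes that build or edit the chain, 13 were tested, 6 rose and 3 fell, with a median of 0.27. The sulphotransferase genes Hs2st1 and Hs6st2 rose from 53.4 ± 1.75 to 103 ± 9.03 CPM and from 45.5 ± 4.01 to 101 ± 10.4 CPM (SD, n = 3). Sulf2, an endosulphatase that removes 6-O-sulphates, fell from 354 ± 14.4 to 221 ± 5.71 CPM, and Extl3, which starts the chain, from 95.3 ± 3.5 to 63.2 ± 3.35 CPM. Their adjusted p ran from 7.67e-05 to 0.000461 (edgeR). The largest rise of this list was that of Hs3st1, a further sulphotransferase gene, named after its value was seen. It was 2.85-fold higher (edgeR adjusted p = 0.000104). Extl3 was no longer called once the local median of -0.43 was taken off (edgeR adjusted p = 0.127, range 9.93e-09 to 0.127). Hs2st1 lies where the local median was 0.46. Its call held under all 15 alternatives, with log2 fold changes of 0.49 to 1.03. Of 12 genes of proteoglycan cores, 7 were tested, 1 rose and 3 fell, with a median of -0.21. The glypican gene Gpc4 rose 1.47-fold and the syndecan genes Sdc2 and Sdc4 were 1.78-fold and 1.35-fold lower (edgeR adjusted p = 0.0146 for Sdc4). In this list 2 genes rose with no filter, without MOSE-NEO replicate 3 or without MOSE-PAX8 replicate 1.

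Of 6 genes for carriers of FGFs or for the unconventional secretion of Fgf1 and Fgf2, 5 were tested, none rose and 3 fell, with a median of -0.32. S100a13, which joins the Fgf1 release complex, fell from 21.5 ± 1.39 to 8.11 ± 0.313 CPM, and Tec, a kinase that phosphorylates FGF2 before its export, from 18.1 ± 1.17 to 10.4 ± 1.39 CPM (SD, n = 3; edgeR adjusted p = 1.94e-05 and 0.00115). S100a13 lies where the local median was -0.54, and with that median removed it was at -0.87 and still called. Without MOSE-PAX8 replicate 1, 1 carrier gene was called higher.

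All 25 adaptor and effector genes of the shared signalling chain inside the cell were tested. Of these 3 rose, 3 fell and 19 were not called, with a median of -0.07, beside the 33.9% called among all tested genes. Map2k2, an ERK kinase, and Akt1 rose 1.48-fold and 1.32-fold, and Nras and the adaptor gene Shc1 were 1.59-fold and 1.51-fold lower (edgeR adjusted p from 0.00015 to 0.00219). Shc1 was not called once the local median of -0.52 was taken off (edgeR adjusted p = 0.526, range 9.73e-10 to 0.526). Nras lies where the local median was -0.46. Its call held under all 15 alternatives, with log2 fold changes of -0.68 to -0.21. The count of lower genes in this list was 5 with RLE factors, without MOSE-NEO replicate 1, and without the lincRNA-rich pair of libraries.

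ERK feedback genes and common FGF response genes were split. Of 18 genes 17 were tested, 6 rose and 3 fell, with a median of 0.06, beside 17.9% higher and 16.1% lower among all tested genes. Spry1, a sprouty inhibitor of receptor tyrosine kinase signalling, had 0.635, 0.608 and 0.465 CPM in MOSE-NEO and 34.3, 46.5 and 58.5 CPM in MOSE-PAX8, an 81.2-fold rise (edgeR adjusted p = 1.7e-06). Phlda1, a growth-factor-induced gene, rose 2.94-fold. The sprouty genes Spry3 and Spry2 were 1.64-fold and 1.39-fold lower, and Spry2 lost its call with the local median of -0.30 removed (edgeR adjusted p = 0.157, range 9.05e-05 to 0.157). The other called genes of the list were 4 higher and 1 lower, named after their values were seen. Egr1, an immediate early gene, rose 8.37-fold, Dusp4, an ERK phosphatase gene, 3.48-fold, and Dusp6, another, and Etv4, an ETS factor, 1.65-fold each, while Dusp5, a further ERK phosphatase gene, was 1.59-fold lower (edgeR adjusted p from 1.37e-05 to 0.016).

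**Figure D4:**
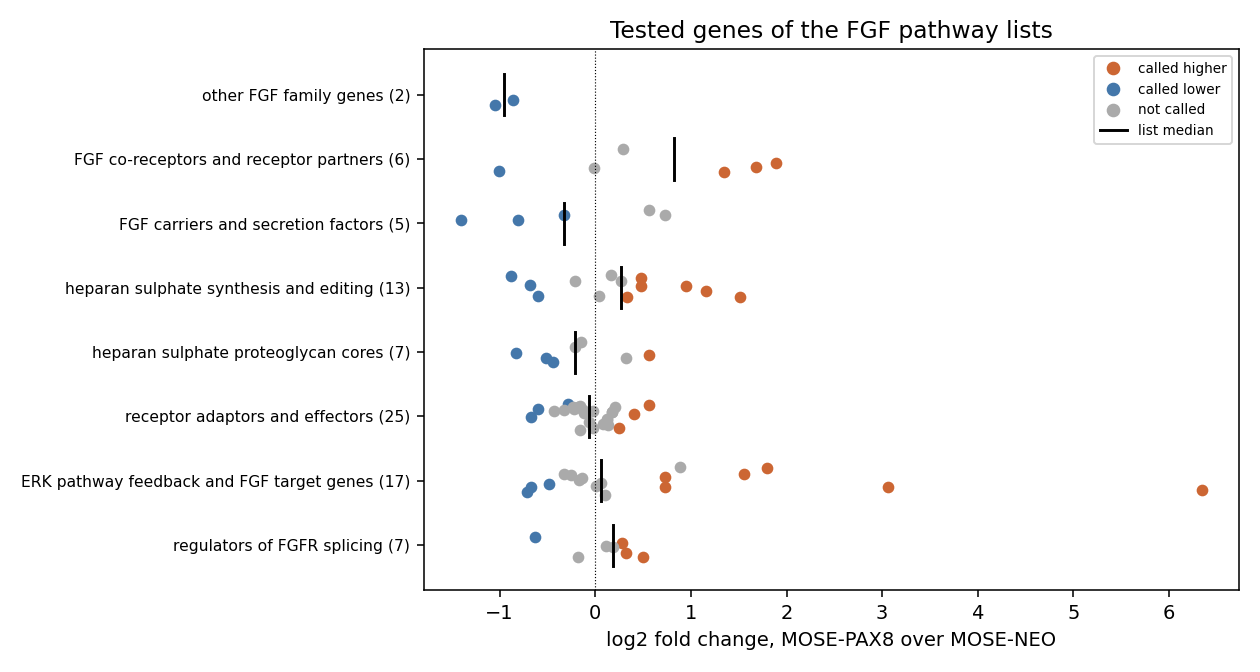
Log2 fold change of MOSE-PAX8 over MOSE-NEO for the 82 tested genes of the 8 lists, with 1 point per gene coloured by the edgeR call, the list median as a line and the number tested in brackets. The membrane partners have the highest median, 0.82, and Spry1 at 6.34 is the largest change.

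Regulators of the IIIb and IIIc splicing choice were measured in place of the forms themselves. Of 10 genes 7 were tested, 3 rose and 1 fell. Esrp1, an epithelial factor that includes IIIb, had 0 counts in every library. Its paralog Esrp2 fell from 44.7 ± 3.22 to 28.9 ± 2.4 CPM (SD, n = 3; edgeR adjusted p = 0.00112). Ptbp1, which represses the IIIb exon of Fgfr2, and its paralog Ptbp2 rose 1.25-fold and 1.42-fold, and neither call held with the local chromosome median removed, where none of the 10 rose (edgeR adjusted p of 0.103 for Ptbp1 and 0.438 for Ptbp2, which had lowest values of 0.00501 and 0.000764 over the alternatives). Ptbp1 also lost its call without MOSE-PAX8 replicate 1 (0.0593) or 3 (0.0761), and in both cases 1 gene of this list rose. The remaining gene that rose was Rbfox2, 1.21-fold higher (edgeR adjusted p = 0.0254), named after its value was seen.

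Genes with symbols of the Gm, Rik and -ps kind were passed over in the rankings below. Among the other tested genes, those whose level followed Fgfr1 most closely over the 6 libraries were Nckap5, Hs3st6 and Lmo7. Their Pearson correlation was 0.999 each on log2(CPM + 0.1), and their log2 fold changes were 6.18, 7.28 and 5.53. Hs3st6 encodes a heparan sulphate sulphotransferase and was not in the list of chain genes above. Those most like Fgf2, the called ligand with the highest CPM, were Mitd1 (0.999), Lgals2 and Sp100 (0.996 each). The points are libraries of 2 lines, so any gene with a clear step between the lines correlates, and 971 tested genes were above 0.95 with Fgfr1 and 281 with Fgf2.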

How the data were processed

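Total RNA of 3 libraries each of MOSE-NEO and MOSE-PAX8 was sequenced. The titles gave each library its group and replicate number. The authors deposited 1 table per library of raw counts by Ensembl gene. The submitters' processing notes list cutadapt 1.13, STAR, HTSeq 0.6.1p1, DESeq2 and build mm10, while annotation, strand setting and handling of multiply aligned reads were not given in the sources used here. GENCODE M21 gave symbols, positions and lengths for 24991 of 25006 identifiers.

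MOSE-PAX8 was compared with MOSE-NEO in edgeR 4.0.16 (R 4.3.3) by its quasi-likelihood test, using TMM factors, filterByExpr to drop low genes, and Benjamini-Hochberg adjustment over 12313 genes, calling an adjusted p below 0.05. Standard errors were worked back from the test statistic, and the 95% intervals of log2 fold changes use them with the test's degrees of freedom. Library totals of 23623762 to 36367825 put the limit of a count of 0 (3 counts) at 0.0825 to 0.127 CPM. Counting intervals and this limit cover counting error only. The labels do not say whether a line's libraries are separate cultures, so p-values cover only differences among these libraries, possibly technical ones. No library repeated another (chi-square per degree of freedom 13.3 or more within a line).

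The members and lists were chosen with earlier results of these data known. Named were all members and other Fgf genes with at least 10 counts. From each list up to 2 called genes per direction with the smallest adjusted p were named. Some further list genes were named after their values were seen, as stated beside them. Also named were the 3 genes most like the called receptor and the called ligand with the highest mean CPM. Symbols of the Gm, Rik and -ps kind were passed over there. Genes sharing exon bases with a member were named where counted, and other exon-sharing genes were not analysed here.

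Alternatives were DESeq2 1.42.0, limma-voom (limma 3.58.1), RLE and upper-quartile factors, no filter, a minimum of 1 CPM in 3 libraries, a replicate block, leaving out each library in turn, removal of the local chromosome median (10 Mb either side), and dropping the lincRNA-rich pair of libraries. Tested on simulated counts for 12313 genes of this comparison, the share of changed genes recovered was 50% at 1.5-fold (60 genes), 81.9% at 2-fold (72 genes) and 98.5% at 4-fold (67 genes), with 4.91% of calls false. Far fewer genes were changed in the simulation than were called in the data (4178), and its dispersions came from the same fit. The recovered shares therefore need not hold for the data.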

Additional observations from a re-analysis of the deposited data

How the results depend on the processing

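Fgfr1, Fgfr2, Fgfr3 and Fgf2 kept their direction and call under all 15 alternatives, with log2 fold changes of 2.06 to 2.29, 1.59 to 2.06, 5.16 to 6.47 and -1.04 to -0.74, and none of the 8 tested members changed direction. Without the lincRNA-rich pair of libraries, 1 ligand was called lower instead of 2, which leaves 4 libraries. Leaving out 1 library at a time gave 2 to 3 ligands lower, 3 receptors higher, and over all genes 1545 to 2065 called higher and 1314 to 1843 lower. The lowest count, 1314 against 1979, came without MOSE-PAX8 replicate 3, which leaves 2 libraries against 3. Same-numbered libraries did not all deviate together (correlations across genes of -0.47, 0.05 and 0.40), and not every library correlated best with its own number. The highest correlation, 0.63, was between MOSE-NEO library 1 and MOSE-PAX8 library 2, the lincRNA-rich pair. With the replicate number as a block, 2070 genes were called higher and 1863 lower, and the calls of the members were the same.

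Receptor shares moved with the length used, the cause being the unlike annotated lengths. By coding length Fgfr1 had 43.8% in MOSE-NEO and 69.2% in MOSE-PAX8 and Fgfrl1 52.7% and 22%. By longest transcript the values were 36.4% and 63.2% for Fgfr1 and 60.3% and 27.6% for Fgfrl1, and with no length scaling 54.2% and 75.4% for Fgfr1 and 41.5% and 15.2% for Fgfrl1. The Fgfr1 share was higher in MOSE-PAX8 with each length. The ratio of ligand to kinase-receptor transcripts in MOSE-NEO and MOSE-PAX8, with these lengths chosen after seeing the data, was 90.0 and 12.6 by coding length, 40.0 and 6.27 by longest transcript, and 20.1 and 2.94 with no length scaling. Fgf1, Fgfr4 and Fgf21 are limited by depth.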
